A study of Mus musculus with 73 samples.

Results

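The 10 genes described here encode proteins that join enterocytes to each other or mark their differentiation, and they were taken as a list by name: *Cdh1*, *Cldn2*, *Cldn3*, *Cldn4*, *Cldn7*, *Cldn15*, *Cldn23*, *Ocln*, *Tjp1* and *Krt20*. All 10 were present among the 17399 genes of the bulk table and the 21058 genes of the single-cell table. They were followed in jejunal epithelium after ablation of *Lgr5*+ cells, and in single epithelial cells that did or did not carry transcripts of villus tip enterocytes. For the ablation, all mice, controls included, were males heterozygous for the Lgr5(GFP-ires-DTR/+) allele and were 4 months old. In this allele the diphtheria toxin receptor is expressed wherever *Lgr5* is, which includes crypt stem cells as well as telocytes of the villus tip stroma. Toxin (DT, 4 mice) or saline vehicle (control, 4 mice) was injected, and epithelium was released with EDTA 48 h later. The single cells came from 8 untreated male C57BL/6 mice aged 3 months. They had been sorted into 35 plates with gates around PDGFRa, EPCAM, NT5E, CD45 and CD31, several of which collected PDGFRa+ doublets.

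Epithelial cells are held together near their apex by a tight junction and, just below it, by an adherens junction. *Cdh1* encodes E-cadherin, the adhesion receptor of the adherens junction. Claudins are the membrane proteins that form tight junction strands: *Cldn2* and *Cldn15* form channels for small cations, whereas *Cldn3*, *Cldn4* and *Cldn7* are commonly grouped with the barrier-forming claudins. *Ocln* encodes occludin, another membrane protein of these strands, and *Tjp1* encodes ZO-1, the cytoplasmic scaffold to which the strands attach. *Krt20* encodes an intermediate filament keratin that is typical of differentiated villus enterocytes, and it serves here as the marker of maturation.

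The sequences just upstream of 3 of these genes are shown, because *Cldn4*, *Cldn2* and *Krt20* are the genes whose levels differed most between DT and control epithelium. Each runs 5′ to 3′ over the 250 bases before the RefSeq transcript start (GRCm38.p6), and capitals mark matches to 6 motifs searched on both strands.
*Cldn4*, chr5:134946935-134947184, minus strand: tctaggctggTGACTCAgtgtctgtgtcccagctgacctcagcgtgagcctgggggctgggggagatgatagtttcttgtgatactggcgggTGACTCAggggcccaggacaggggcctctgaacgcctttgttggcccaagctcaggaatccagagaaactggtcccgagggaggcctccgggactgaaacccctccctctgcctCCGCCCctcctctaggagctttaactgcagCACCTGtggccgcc
*Cldn2*, chrX:139800558-139800807, plus strand: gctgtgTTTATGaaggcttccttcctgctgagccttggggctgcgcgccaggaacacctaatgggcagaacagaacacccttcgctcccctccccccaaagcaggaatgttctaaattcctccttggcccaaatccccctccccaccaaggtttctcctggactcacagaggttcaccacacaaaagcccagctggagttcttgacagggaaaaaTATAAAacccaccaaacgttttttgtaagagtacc
*Krt20*, chr11:99438154-99438403, minus strand: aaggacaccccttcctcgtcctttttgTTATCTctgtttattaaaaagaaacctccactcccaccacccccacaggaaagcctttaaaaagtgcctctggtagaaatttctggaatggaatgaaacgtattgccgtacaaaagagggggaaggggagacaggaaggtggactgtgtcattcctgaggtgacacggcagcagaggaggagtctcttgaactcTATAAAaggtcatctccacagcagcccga
*Cldn4* held the AP-1 element TGANTCA at 240 and 158 bases before the start. This element was present in 6.75% of 32851 promoters of the same length, and among the listed genes also in *Cldn15*. *Cldn4* further held the GC box GGGCGG, found in 32.7% of promoters, and the E-box CACCTG, found in 17.2%. *Cldn2* and *Krt20* each held the TATA box TATAAA, present in 12.4% of promoters, at 35 and 29 bases before the start. *Cldn2* also held the CDX letters TTTATG (10.8% of promoters). *Krt20* also held the GATA letters AGATAA (9.99% of promoters). No match overlapped another in these 3 windows. Promoters were listed for 8 of the 10 genes. *Cldn4* (chromosome 5, 134945119 to 134946934, minus strand) and *Cldn3* (134986214 to 134987472, plus strand) are neighbours, 39280 bases apart. The 3′ end of *Cldn3* overlaps the antisense gene *Wbscr25* in GENCODE, and since no strand setting was given for the bulk counts, their reads cannot be told apart there.

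Bulk epithelium was counted as unique molecular identifiers (UMIs) at transcript 3′ ends, between 748458 and 4210158 UMIs per mouse. Values are CPM, a gene's share of the UMIs of a sample times 1000000, after scaling by the trimmed mean of M values (TMM). Each UMI stands for 1 transcript end, so that the values do not grow with transcript length. The samples were processed in 2 batches, a and b, each with 2 control and 2 DT mice. The toxin effect was visible in the villus tip genes used later to split the cells: *Ada*, a purine-degrading deaminase, fell from 607 ± 29.5 to 147 ± 44.6 (SD, n = 4 each; adjusted p = 0.0106, edgeR). *Nt5e*, the ecto-5′-nucleotidase, fell from 67.7 ± 26.7 to 10.7 ± 6.56 (adjusted p = 0.0381, edgeR), and *Slc28a2*, a nucleoside transporter, was at 104 ± 28.4 and 35.6 ± 24.7 (adjusted p = 0.125, edgeR). *Lgr5* itself was at 39.4 ± 28.9 in control and 24.8 ± 18.8 in DT epithelium, with a log2 fold change of -0.75 ± 0.32 (SE, adjusted p = 0.258). Markers of tuft and Paneth cells were lower in DT mice. The 4 tuft markers summed to 37.2 to 65.3 CPM in control and 3.68 to 10.97 in DT mice (3 of 3 tested fell), and the 5 Paneth markers to 1083 to 3199 and 329 to 756 (2 of 5 fell). The groups overlapped in the other sums. The 6 goblet markers summed to 5320 to 9817 and 3665 to 5491 (0 of 6 called), the 5 enteroendocrine markers to 496 to 776 and 287 to 517 (0 of 4 tested called) and the 7 enterocyte markers to 29429 to 45032 and 29394 to 48507 (0 of 7 called). The 3 epithelial markers *Epcam*, *Krt8* and *Vil1* summed to 3917 to 4795 and 3292 to 4117, and the 3 endothelial markers to 3.27 to 21.0 and 1.05 to 11.8. Of these, *Cdh5* and *Kdr* were at 0 throughout, and *Pecam1* had a log2 fold change of -0.98 ± 0.31 (SE, p = 0.00811, adjusted p = 0.222, edgeR). The part of these cell populations in the values below was not tested, and in bulk samples fewer cells of a type and less RNA per cell cannot be told apart.

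After ablation, *Cldn2* was 1.95-fold higher and *Cldn4* 2.92-fold lower by the fitted fold change, and *Krt20* was lower in every DT mouse than in any control. *Cdh1* and the remaining genes had smaller fitted log2 fold changes, between -0.33 and 0.31, and their intervals are given below. None of these differences passed an adjusted p of 0.05. Of 8986 genes tested, 32 passed (0.356%), 2 of them higher (0.0223%) and 30 lower (0.334%), against 0 of the 10 junction and adhesion genes. With the replicate number as a block, 3 genes passed. At the looser limit of 0.2, 2.38% of all genes (0.723% higher and 1.66% lower) and 1 of the 10, *Cldn2*, passed, and with the block *Cldn2* was at 0.284. DESeq2 called 143 genes and 1 of the 10, again *Cldn2* (adjusted p = 0.0497). Without adjustment, p was under 0.05 for 17.3% of all genes (8.82% higher and 8.44% lower) and for *Cldn2*, *Cldn4* and *Krt20* among the 10. The median log2 fold change over the 10 was -0.15, beside 0.0041 over all genes tested.

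*Cdh1* was at 556, 467, 405 and 338 CPM in control and 530, 359, 316 and 345 in DT epithelium, in replicate order. The groups overlapped overall and in both batches, and the mean was 441 ± 92.8 against 388 ± 96.5 (SD, n = 4). The log2 fold change was -0.19 ± 0.20 (SE, adjusted p = 0.646, edgeR), with a 95% interval of -0.63 to 0.26.

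*Cldn4* was at 36.3, 16.3, 53.3 and 20.1 CPM in the control mice and at 10.97, 1.97, 18.4 and 14.3 in the DT mice. The highest DT value lay just above the lowest control value, but within each batch the groups did not overlap. Its log2 fold change was -1.54 ± 0.46 (SE, 95% interval -2.56 to -0.53, p = 0.00639, adjusted p = 0.217, edgeR), and it was -2.30 within batch a and -1.16 within batch b. These levels rest on few transcripts, between 4 and 234 UMIs per mouse.

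*Cldn2* was at 16.0, 23.8, 38.7 and 27.8 CPM in control and 26.2, 53.1, 50.1 and 74.0 in DT epithelium. The lowest DT mouse, of batch a, overlapped the controls of batch b, and within each batch both DT mice were above both controls. The log2 fold change was 0.97 ± 0.26 (SE, 95% interval 0.41 to 1.53, p = 0.00275, adjusted p = 0.177, edgeR), with 1.08 in batch a and 0.89 in batch b. *Cldn2* was the 139th gene by p of the 8986.

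*Cldn15*, which forms channels for sodium, was at 580, 681, 387 and 330 in control and 563, 362, 307 and 311 in DT mice. In each batch both DT mice were below both controls, with a log2 fold change of -0.33 ± 0.21 (SE, 95% interval -0.79 to 0.13, adjusted p = 0.422, edgeR). The share of all genes that separate within both batches was not counted, so this pattern in *Cldn4*, *Cldn2* and *Cldn15* has no background rate.

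*Cldn3*, *Cldn7*, *Cldn23*, *Ocln* and *Tjp1* overlapped between the groups in both batches. *Cldn7*, *Cldn3* and *Tjp1* had log2 fold changes of -0.11, 0.19 and -0.30, *Ocln* of 0.23 and *Cldn23* of 0.31, with adjusted p between 0.452 and 0.818 (edgeR). On the log2 scale, the intervals of the first 4 of these genes reach down to -0.74 (*Tjp1*) and up to 0.71 (*Cldn3*). That of *Cldn23* runs from -0.46 to 1.08. *Tjp1* differed more by batch than by treatment, at 133, 241, 137 and 127 CPM in the mice of batch a and 57.9, 51.7, 46.7 and 55.5 in those of batch b.

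*Krt20*, the most abundant of the 10, was at 1155, 1025, 1767 and 1217 CPM in control and 907, 759, 977 and 855 in DT mice. It was the 1 gene of the 10 whose groups did not overlap, which was the case for 3.08% of the genes tested (1.21% higher and 1.87% lower in DT). Its log2 fold change was -0.55 ± 0.23 (SE, 95% interval -1.04 to -0.050, p = 0.0338, adjusted p = 0.254, edgeR), at -0.39 in batch a and -0.70 in batch b. The effect of DT did not pass a test for a difference between the batches in any of the 10 (p between 0.255 and 0.935, adjusted p of 1.00 for each, edgeR). Over all genes the same test called 0, with 223 at an unadjusted p under 0.05.

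In the order of their control means, the genes ran from *Krt20* (1291 ± 327 CPM) through *Cldn7* (521 ± 145), *Cldn15* (494 ± 164), *Cdh1* (441 ± 92.8), *Cldn3* (290 ± 116), *Tjp1* (121 ± 88.1), *Ocln* (63.4 ± 16.3), *Cldn4* (31.5 ± 16.9), *Cldn2* (26.6 ± 9.49) and *Cldn23* (12.6 ± 9.37; SD, n = 4 each). *Cldn7*, *Cldn15* and *Cdh1* lay within each other's SD, as did *Cldn4* and *Cldn2*. In DT epithelium *Cldn4* moved to the last place of the 10 and *Cldn2*, at 50.9 ± 19.6, to the eighth.

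**Figure D1:**
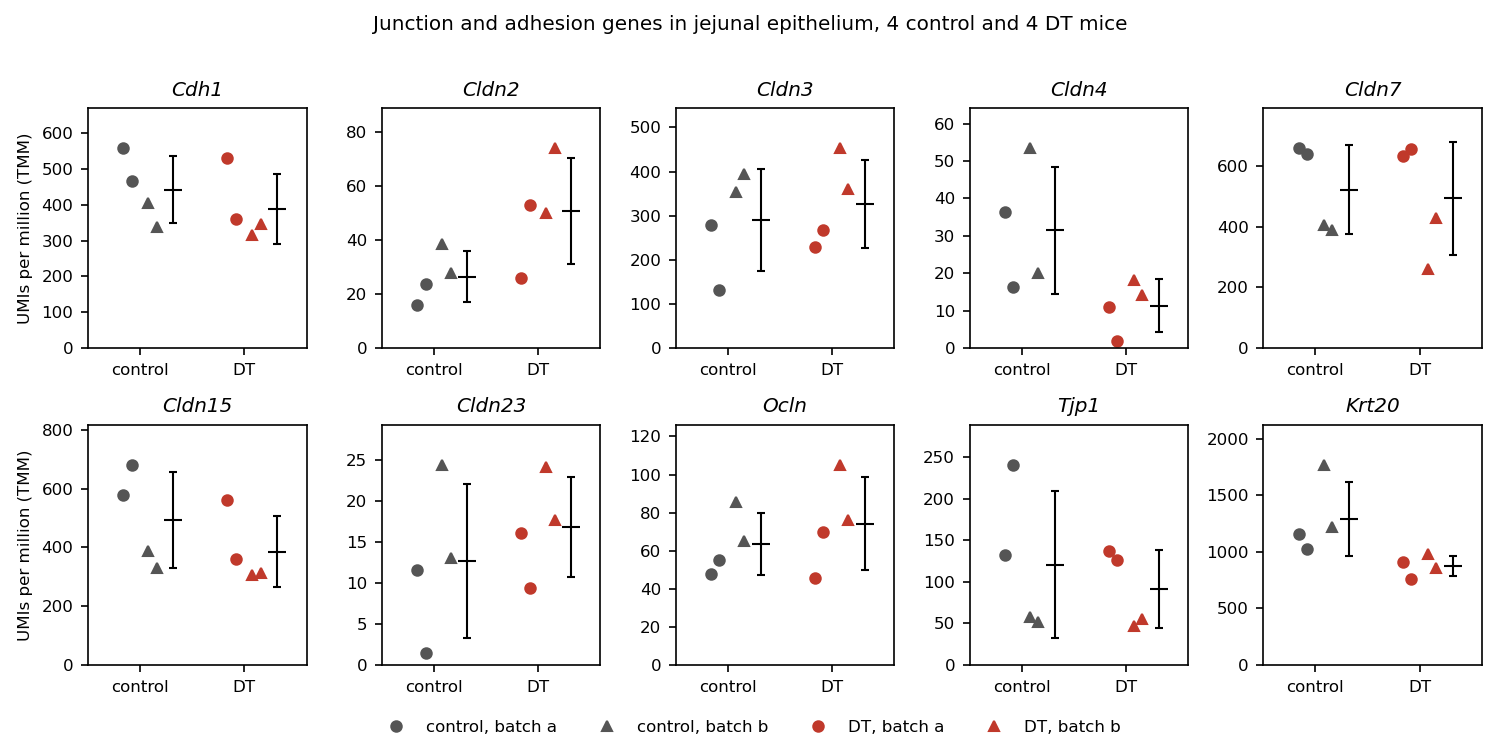
Level of each gene in CPM (TMM-scaled, linear axis from 0) in the 4 control (grey) and 4 DT (red) mice, with circles for batch a and triangles for batch b, and mean ± SD beside each group. *Krt20* was between 759 and 977 in DT mice and between 1025 and 1767 in controls, *Cldn4* and *Cldn2* separate within each batch, and *Tjp1* splits by batch. The share of all genes that separate within each batch was not counted.

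Of 107 further genes of tight junctions, adherens junctions, desmosomes, keratins, microvillar links, matrix adhesion and gap junctions, 74 were tested and 0 were called, with a median log2 fold change of -0.16. At an unadjusted p under 0.05, 2 were higher and 8 lower (8.82% and 8.44% of all genes tested), and DESeq2 called 1, *Myo7b*. Among other tight junction membrane proteins (8 tested), *Marveld2*, which encodes tricellulin, had -0.53 ± 0.24 (SE, p = 0.0511), *Marveld3* -0.34 and the adhesion receptor *Cxadr* -0.35. In the plaque and polarity list (19 tested) *Tjp3*, which encodes ZO-3, had 0.42 ± 0.17 (p = 0.0264), and the scaffolds *Magi1* and *Magi3* had -0.52 and -0.43. The adherens junction list (13 tested) had *Vcl*, which encodes vinculin, at 0.31, *Plekha7* at -0.29 and *Lima1* at -0.28 as the smallest p, and the desmosome list (8 tested) had the plakophilin *Pkp3* at -0.35, *Dsp* at -0.35 and *Dsg2* at -0.22. In the list of microvillar links, by which brush border protrusions hold to each other, 3 of 6 genes were lower at an unadjusted p under 0.05, against 8.44% of all genes. These were *Myo7b* (-0.66 ± 0.19), *Ush1c* (-0.54 ± 0.24) and the cadherin *Cdhr2* (-0.49 ± 0.20), with adjusted p of 0.203 to 0.278 (edgeR). The matrix adhesion list (10 tested) had the integrin subunits *Itgb4* at -0.47 and *Itga6* at -0.35 and plectin, *Plec*, at -0.79 as the smallest p. *Krt7*, *Krt19* and *Krt18* had 0.38, 0.43 and 0.021, and *Gjb1*, *Ceacam20* and *Ceacam1* had 0.37, -0.10 and -0.094.

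The genes whose levels followed *Cldn4*, *Cldn2*, *Krt20* and *Cdh1* most closely were taken by Pearson's r of log2 levels over the 8 mice, after the mean of each batch was removed, among 8985 genes. For *Cldn4* these were *Lck* (r = 0.989), *Tmc5* (0.988) and *Picalm* (0.988), and for *Cldn2* they were *Anxa7* (0.980), *Nol7* (0.975) and *Pdia5* (0.967). For *Krt20* they were *Ccng2* (0.984), *Ganc* (0.975) and *Pdzk1* (0.974), and for *Cdh1* they were *Rac2* (0.987), *Il4ra* (0.985) and *Laptm5* (0.967). The points share libraries and treatment groups, and the highest of 8985 values over 8 mice will be high. *Lck*, *Rac2* and *Laptm5* are genes of lymphocytes and other blood cells. The sum of 10 immune markers ran from 328 to 2093 CPM in control and from 174 to 1212 in DT mice (0 of 10 called), and its part in the levels of *Cldn4* and *Cdh1* was not tested.

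In the single cells, 1637 of 2347 cells past the limits on depth (400 to 8000 UMIs and at least 250 genes) had a UMI of *Epcam* or *Krt8* and were taken as epithelial. Of these, 275 carried 3 or more UMIs of *Ada*, *Nt5e* and *Slc28a2* (tip-marker-high), 1250 carried none (tip-marker-zero) and 112 carried 1 or 2. Median depth was 1653 UMIs in high and 1759 in zero cells. *Ada* was detected in 99.6% of high cells, *Slc28a2* in 70.9% and *Nt5e* in 23.6%, so that the class mostly reflects *Ada*. *Vil1*, an epithelial marker not used to select the cells, was detected in 85.5% of high and 82.2% of zero cells, *Ptprc* in 0.364% and 0.480% and *Pdgfra* in 0.364% and 0.560%. Mice A, E, G and H had at least 5 cells in both classes (144, 8, 88 and 28 high cells), and their UMIs were summed per mouse and class. Gates fed the classes unevenly. In mouse G, 54 of the 88 high cells and 8 of the 259 zero cells came from the CD45 gate. In mouse A, 104 of the 144 high cells and 211 of the 381 zero cells came from the EPCAM PDGFRa doublet gate.

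Epithelial cells with villus tip transcripts had more *Krt20*, *Cdh1*, *Cldn7* and *Cldn23* per UMI than cells without them, and none of the 10 genes was called lower. *Cldn4* was found almost only in the high cells. *Krt20* was 2.87-fold, *Cldn23* 3.44-fold, *Cdh1* 2.00-fold and *Cldn7* 1.94-fold higher. Of 8963 genes tested, 15.2% were called at an adjusted p under 0.05, 4.13% higher and 11% lower. Leaving aside *Cldn4*, 4 of the other 9 genes were called. The same 4 passed at 0.2, as did 28.4% of all genes (7.4% higher and 21.0% lower). The same 4 also had an unadjusted p under 0.05, as did 27.1% of all genes (7.06% higher and 20.0% lower). The median log2 fold change over all genes was -0.44, and over these 9 it was 1.00. Changes should be read relative to that shift. The call for *Krt20* held in all 22 alternative analyses, whereas those for *Cdh1*, *Cldn7* and *Cldn23* held in 10, 17 and 14 of them.

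*Cdh1* was at 1.26, 2.90, 1.31 and 1.11 UMIs per 10000 in the zero class of mice A, E, G and H and at 2.27, 5.43, 2.76 and 2.29 in the high class. It was higher in the high class in 4 of 4 mice, by 1.80-fold to 2.11-fold, and its level was highest in mouse E in both classes. The share of all genes higher in 4 of 4 mice was not counted, so such counts of mice have no background rate. The log2 fold change was 1.00 ± 0.36 (SE, 95% interval 0.30 to 1.70, adjusted p = 0.0354, edgeR). With 1 mouse left out the log2 fold change lay between 1.03 and 1.23, and the call was lost without mouse A (adjusted p = 0.202) or G (0.252). Without the doublet gates it was 0.66 (adjusted p = 0.593), with cells from 200 UMIs 0.63 (0.317), with plate as a term 0.70 (0.271) and with thinned classes 0.74 (0.287). The call was also lost without the CD45 gate (0.0896) or the NT5E gate (0.0638), with thinned counts and full classes (0.129), with cells of at least 1000 UMIs (0.0698), with no mouse term (0.0761) and with no filter (0.0517).

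*Cldn4* had 0 UMIs among the 1992587 UMIs of the zero cells of these mice and 43 among the 572109 UMIs of their high cells. Per 10000 UMIs it was at 0.733, 0.905, 0.805 and 0.637 in the high class of mice A, E, G and H. Against a floor of 3 UMIs over the zero class, the level was at least 49.9-fold higher. The gene passed the filter on low counts through the high class alone, so it had to differ, and no p is given. In the pooled cells *Cldn4* was detected in 30 of 275 high cells (10.9%, exact binomial 95% interval 7.48% to 15.2%) and in 3 of 1250 zero cells (0.240%, 0.0495% to 0.700%), the 3 being from mouse F, which had too few high cells to be tested. All 43 UMIs of high cells lay in cells with 5 or more tip UMIs (30 of 233), and 0 of 42 cells with 3 or 4 tip UMIs had one, which at a floor of 3 cells allows a share of cells with a UMI of up to 7.14%. The positive high cells were spread over gates, with 12 of 104 in the EPCAM PDGFRa doublet gate, 7 of 56 in PDGFRa singlets, 4 of 23 in EPCAM singlets and 3 of 55 in the CD45 gate.

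*Cldn7*, the most abundant claudin of these cells, was at 4.67, 9.19, 5.67 and 6.42 UMIs per 10000 in the zero class and at 13.0, 6.33, 17.5 and 10.8 in the high class of the same mice. It was higher in 3 of 4 mice and lower in mouse E, whose high class held 8 cells. Its log2 fold change was 0.95 ± 0.29 (SE, 95% interval 0.39 to 1.52, adjusted p = 0.0104, edgeR). The call was lost without mouse A (adjusted p = 0.338), mouse G (0.373), the doublet gates (0.308) or the CD45 gate (0.0505), and with cells from 200 UMIs (0.196). *Cldn23*, with 37 UMIs in the zero and 36 in the high cells of these mice, was at 0.177, 0, 0.208 and 0.369 per 10000 in the zero class and 0.663, 0.905, 0.748 and 0.127 in the high class. Its log2 fold change was 1.78 ± 0.63 (SE, adjusted p = 0.0321, edgeR), with mouse H in the opposite direction. It was not called in DESeq2 (adjusted p = 0.0879), nor without mouse A (0.466), mouse G (0.336), the doublet gates (0.190) or the CD45 gate (0.0631). The call was also lost with no filter, with plate as a term and without cells that held a marker of another cell type.

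*Cldn2* was scarce in these cells, with 29 UMIs in 26 of 1250 zero cells (2.08%, exact binomial 95% interval 1.36% to 3.03%) and 3 UMIs in 2 of 275 high cells (0.727%, 0.0882% to 2.60%). Over the 4 tested mice it was at 0.189 ± 0.174 UMIs per 10000 in the zero and 0.0375 ± 0.0543 in the high class (SD, n = 4). The log2 fold change was -1.27 ± 1.13 (SE, 95% interval -3.49 to 0.94, adjusted p = 0.487, edgeR), so that a difference in either direction was not detectable at this depth. The zero cells with *Cldn2* came from 8 of the gates.

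*Tjp1* was higher in the high class in 4 of 4 mice and *Ocln* in 3 of 4, but neither passed the test. *Tjp1* was at 0.317, 0.441, 0.383 and 0.0738 UMIs per 10000 in the zero class and 0.663, 0.603, 0.518 and 0.637 in the high class. Its log2 fold change was 1.06 ± 0.58 (SE, 95% interval -0.072 to 2.19, adjusted p = 0.216, edgeR). *Ocln* had 1.06 ± 0.56 (SE, 95% interval -0.046 to 2.16, adjusted p = 0.202), which became 1.54 (adjusted p = 0.0479) without mouse E. *Cldn3* and *Cldn15* had log2 fold changes of 0.085 (95% interval -0.59 to 0.76) and -0.047 (-0.68 to 0.58), and the sign of both varied among the alternatives. Over the 22 alternatives *Cldn15* ran from -1.09 to 0.15 and was called in 0 of them. *Cldn3* was at 2.58 ± 0.146 UMIs per 10000 in the zero and 2.75 ± 0.542 in the high class, and *Cldn15* at 3.61 ± 0.542 and 3.58 ± 1.15 (SD, n = 4 mice).

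*Krt20* was at 19.7, 18.0, 17.9 and 16.2 UMIs per 10000 in the zero class of mice A, E, G and H and at 65.9, 51.0, 41.0 and 48.2 in their high class. The classes did not overlap, but the share of all genes for which this holds was not counted. The log2 fold change was 1.52 ± 0.26 (SE, 95% interval 1.01 to 2.04, adjusted p = 4.85e-07, edgeR). It was detected in 72.8% of cells with no tip UMI, 87.8% with 1, 96.7% with 2, 90.5% with 3 or 4 and 97.9% with 5 or more. *Krt20* was thus common in pooled cells below the tip-marker limit. Its level in the pooled high cells, 54.5 UMIs per 10000, was far above the 0.734 of *Cldn4*, so their detected shares are not compared.

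**Figure D2:**
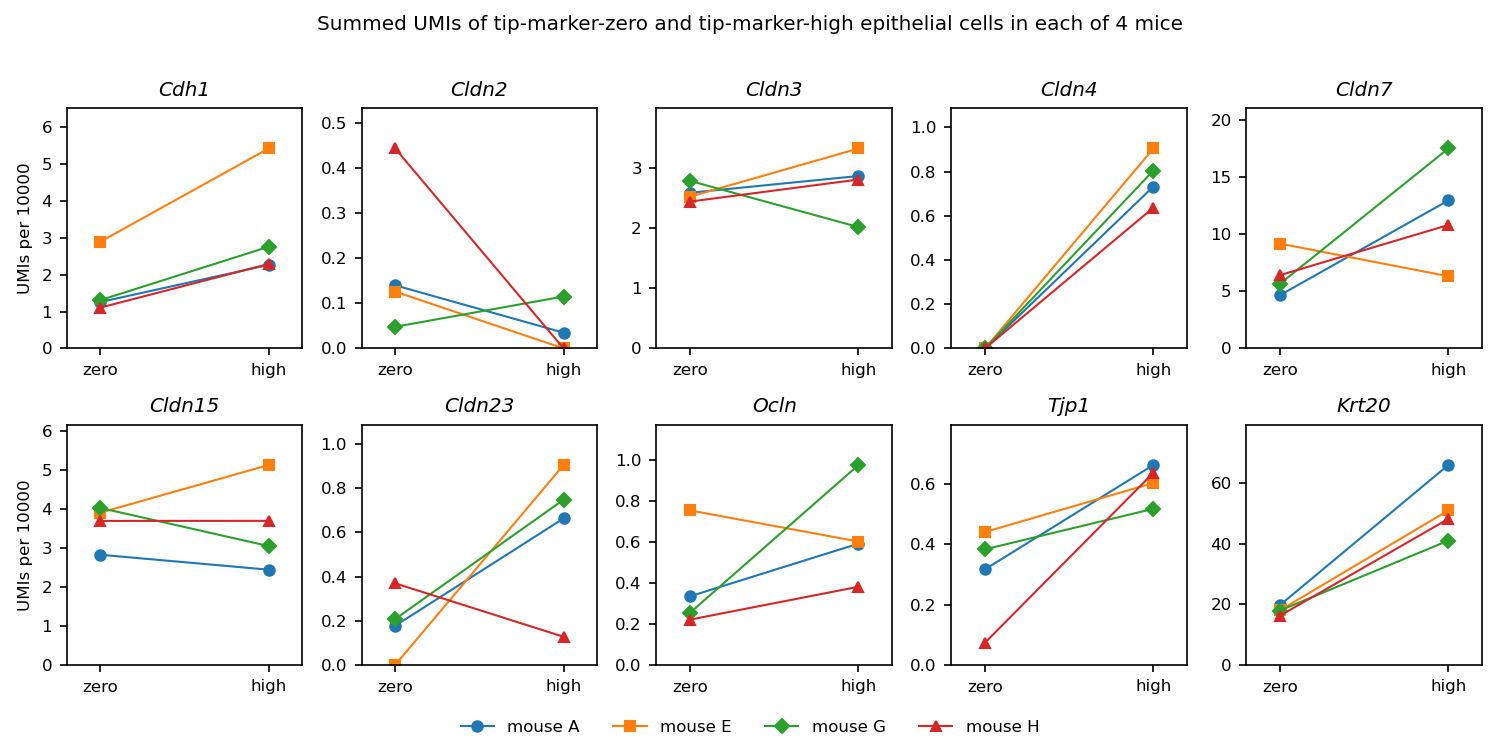
UMIs per 10000 of each gene (linear axes from 0) in summed tip-marker-zero and tip-marker-high epithelial cells, 1 line per mouse (A, E, G, H). *Cldn4*, *Krt20*, *Cdh1* and *Tjp1* were higher in the high class in 4 of 4 mice, and *Cldn7* and *Cldn23* in 3 of 4. The shares of all genes with such counts were not counted.

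The genes were also read in cells of other types, which were taken without a UMI of *Epcam*, *Krt8* or *Vil1*, so that wells with much free epithelial RNA were left out and the shares may understate it. In 33 cells with *Ptprc* (median 910 UMIs) *Krt20* was detected in 6.06% and the other 9 genes in none. In 305 mesenchymal cells (median 1022 UMIs), *Cldn7* was detected in 1.31%, *Krt20* in 1.97%, *Cldn15* in 0.984% and *Tjp1* in 3.28%, while *Cdh1*, *Cldn2*, *Cldn3*, *Cldn4*, *Cldn23* and *Ocln* were in 0 of 305, which at a floor of 3 cells allows a share of cells with a UMI of up to 0.984%. *Tjp1* is also made by mesenchymal cells. With every cell thinned to 1000 UMIs (949 zero and 223 high cells, shallower cells left out), *Cldn4* was detected in 0.105% of zero and 7.17% of high cells, *Cldn7* in 38.8% and 66.4%, *Cdh1* in 13.1% and 19.7% and *Krt20* in 64.9% and 94.6%. Thinned, *Cldn15* was in 25.7% of zero and 17.5% of high cells. In the same cells unthinned, *Cdh1* was in 30.6% of zero and 35.4% of high cells and *Cldn7* in 60.1% and 80.7%. The shares that follow are unthinned and cover all 1250 zero and 275 high cells, shallower ones included. *Cdh1* was in 25.2% of zero and 32.0% of high cells and *Cldn7* in 53.3% and 78.9%. *Cldn15* was detected in 40.2% of zero and 31.3% of high cells, *Cldn3* in 31.8% and 32.4%, *Ocln* in 6.80% and 11.3%, *Tjp1* in 5.84% and 8.00% and *Cldn23* in 3.92% and 10.2%. Intervals on shares cover counting error only.

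**Figure D3:**
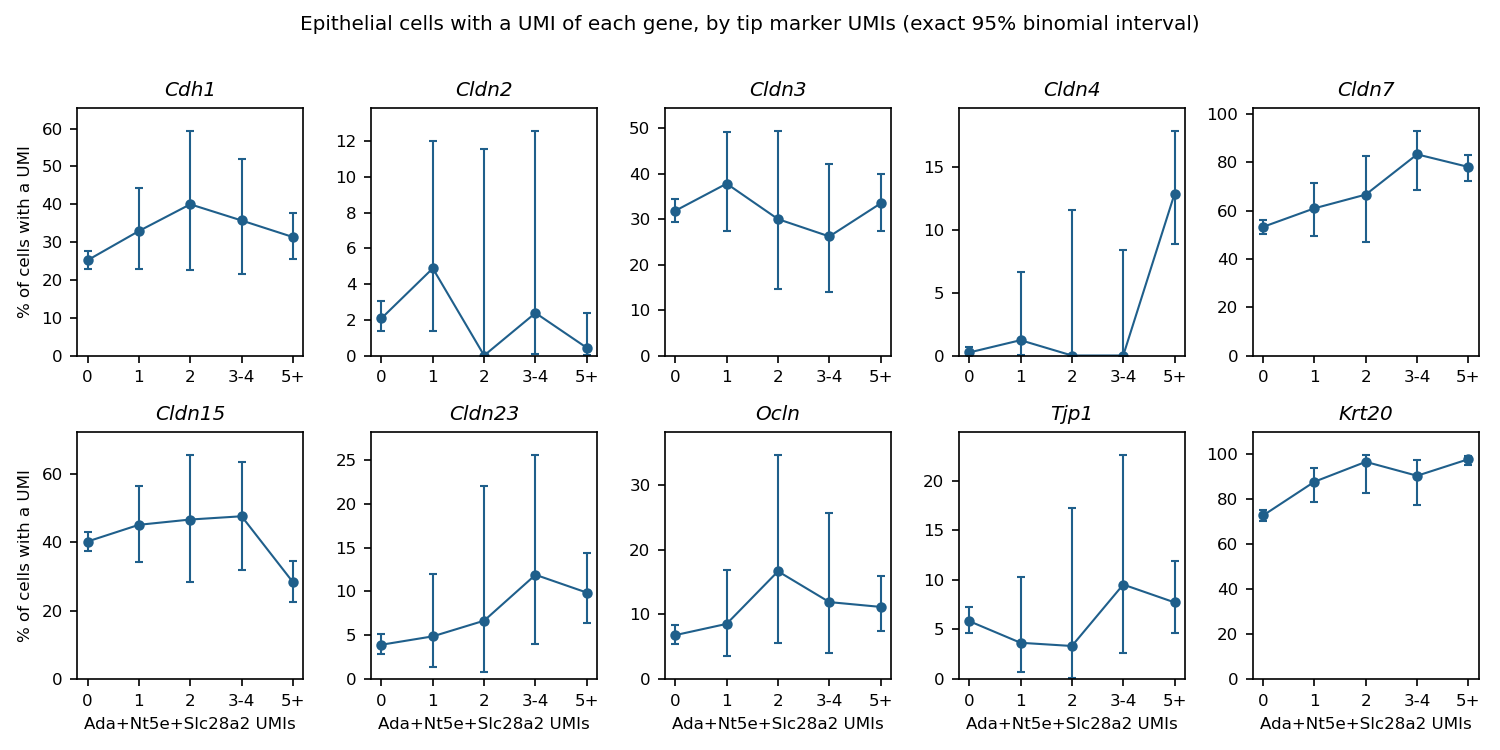
Percent of pooled epithelial cells with at least 1 UMI of each gene (linear axes from 0) against the number of *Ada*, *Nt5e* and *Slc28a2* UMIs in the cell, with exact 95% binomial intervals. *Krt20* is at 72.8% with no tip UMI and 97.9% with 5 or more, and *Cldn4* is at 0.240% and 12.9%.

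Of 68 further junction and adhesion genes tested, 13 were higher and 3 lower in high cells (23.5%, against 15.2% of all genes), with a median log2 fold change of 0.42. Desmosomes, the spot junctions that anchor keratin filaments, had 4 of 7 tested genes called, all higher. These were *Dsp* (1.68 ± 0.39, adjusted p = 0.000287), *Dsc2* (1.67 ± 0.41), *Pkp3* (1.49 ± 0.46) and *Dsg2* (1.43 ± 0.40; log2 ± SE, edgeR). In the plaque and polarity list 2 of 18 tested genes were called higher and 1 lower, beside 15.2% of all genes called. The median log2 fold change of this list was 0.0026. Cingulin, *Cgn* (1.40 ± 0.45), and *Pard6b* (1.76 ± 0.59) rose and *Ybx3*, a ZO-1-binding factor, fell (-2.31 ± 0.77). None of the 13 tested adherens junction genes was called, with 2 at an unadjusted p under 0.05, *Ctnna1* (0.74) and *Lima1* (0.68), and *Jup* was at 0.95. DESeq2 called 2 of the 13. In the other tight junction membrane list 0 of 8 were called (1 by DESeq2), *F11r* was at 0.86 (p = 0.0221), *Cxadr* at 0.94 and *Cldnd1* at -1.02.

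Matrix and brush border adhesion genes were among the differences as well, beside 15.2% of all genes called. In the matrix adhesion list 3 of 10 tested genes were called higher and 1 lower, with a median log2 fold change of 0.49. The integrin subunits *Itgb6* (3.44 ± 0.81) and *Itgb5* (2.09 ± 0.60) and plectin, *Plec* (1.50 ± 0.33), were higher in high cells, and *Lad1*, a basement membrane filament protein, was lower (-1.83 ± 0.47). Of 6 tested genes of microvillar links, the cadherins *Cdhr2* (1.30 ± 0.28) and *Cdhr5* (0.73 ± 0.27) were called higher, and the list median was 0.050. *Ush1c* (-0.42), *Anks4b* (-0.33), *Calml4* (-0.61) and *Myo7b* (0.43) were not called. *Ceacam1* (1.41 ± 0.29) and *Ceacam20* (1.51 ± 0.33) were higher, and *Gjb1* (-1.53) was not called. Among the keratins (4 tested) *Krt19* fell by 3.47 ± 0.37 on the log2 scale. *Krt8* (0.82) and *Epcam* (1.15) were higher too, but they had been used to select the cells.

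The classes also differed in markers of other cells, whose part in the comparison was not tested. The 6 mesenchymal markers summed to 1.77 to 5.05 UMIs per 10000 in the zero and 0 to 0.510 in the high class (4 of 4 tested lower: *Dcn*, *Col1a1*, *Col1a2* and *Col3a1*), and the 7 crypt and cycling markers to 0.671 to 2.00 and 0.173 to 0.384 (*Mki67* and *Pcna* of 4 tested lower). The immune sum overlapped, at 0.0160 to 4.58 and 0.0349 to 1.40 (*Ccl5* of 3 tested lower), as did the goblet sum, at 2.14 to 29.1 and 0.803 to 55.0 (0 of 6 called), and the sums of Paneth, tuft and endothelial markers (0 called of those tested). The 7 enterocyte markers summed to 277 to 419 in the zero and 674 to 775 in the high class. Of these, *Apoa4* (2.56), *Alpi* (1.44) and *Apoa1* (0.98) were higher, while *Sis* (-1.88), *Fabp1* (-1.38) and *Anpep* (-0.90) were lower (log2 fold changes). Leaving out cells with a UMI of *Ptprc*, *Pdgfra*, *Dcn*, *Lum* or *Pecam1* kept *Krt20*, *Cdh1* and *Cldn7* called, with *Cldn23* at an adjusted p of 0.0520.

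Side by side, *Cldn4*, found almost only in the high class, and *Krt20* had log2 fold changes of -1.54 and -0.55 in DT epithelium, whereas *Cdh1* and *Cldn7*, higher in the high class, had -0.19 and -0.11. *Cldn23*, also higher in the high class, had 0.31. *Cldn2*, rare in both classes, had 0.97. None of these DT changes passed an adjusted p of 0.05, and a link between the comparisons was not tested. In the control epithelium *Ada* was at 575 to 641 CPM and *Cldn4* at 16.3 to 53.3, and in the high cells they were at 62.6 to 111 and 0.637 to 0.905 UMIs per 10000.

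**Figure D4:**
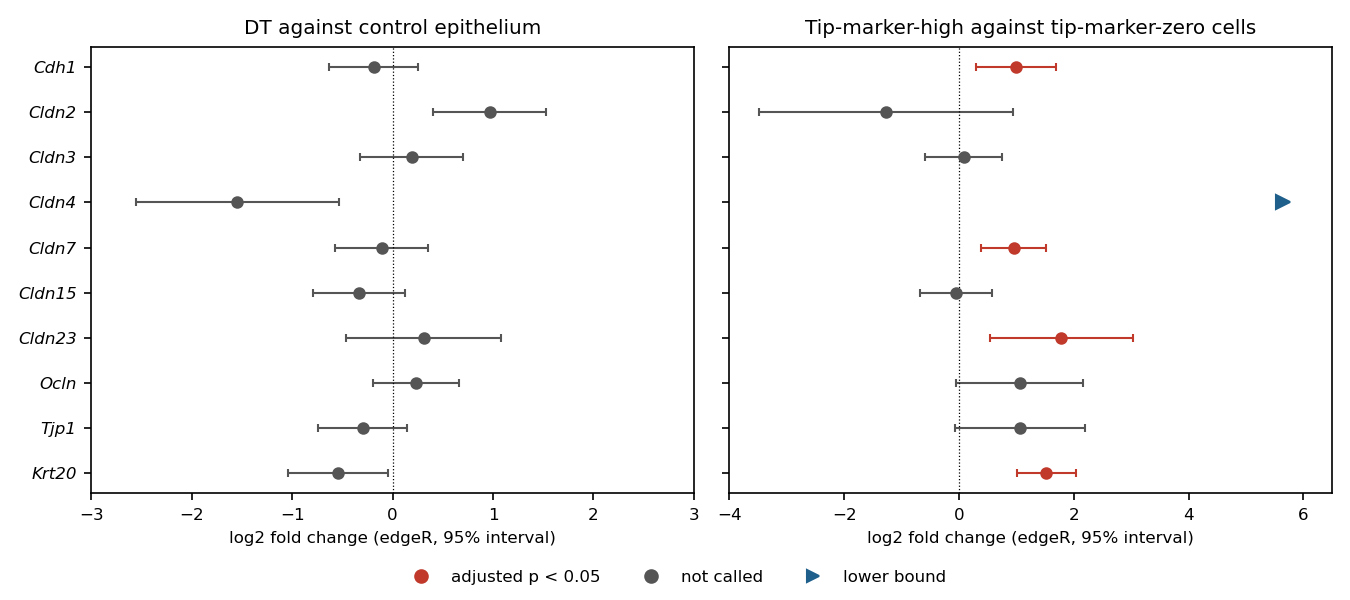
Log2 fold change with its 95% interval from edgeR for each gene, in DT against control epithelium (left) and in tip-marker-high against tip-marker-zero cells (right). Red marks an adjusted p under 0.05, reached by 0 genes on the left and by 4 of the other 9 on the right, where the blue arrowhead for *Cldn4* is the lower bound of a 49.9-fold difference.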

How the data were processed

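Epithelium of 4 DT and 4 control mice was profiled with mcSCRB-seq, and sorted single cells with MARS-seq. The authors aligned reads to GRCm38 with zUMIs after bcl2fastq (2.15.0.4) and deposited UMI counts per gene, not normalized. The 10 members, the other lists and the tests were chosen with earlier results of these data known. Batches of the bulk samples are those of the study's supplementary count table. Genes above 1e-05 of the summed UMIs in at least 2 samples were tested with edgeR 4.0.16 (TMM, robust quasi-likelihood test, batch as a term), with Benjamini-Hochberg adjustment over all genes tested, and a gene was called at an adjusted p under 0.05. Intervals are 95% intervals of the fit.

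Single-cell UMIs were summed per mouse and class, for mice with at least 5 cells in both classes, and tested the same way with mouse as a term. The study subtracted a background estimated from empty wells. These wells were not identified here and nothing was subtracted. Doublets were left in, as several gates collected them by design, and no caller was applied. All 384 well barcodes recur on several plates, so cells were told apart by plate and well. The 352 wells of 1 plate that matched no sample were not used, nor were the microdissected samples.

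DT and control samples with the same number correlated in their deviations from the group means (r = 0.60, 0.41, 0.65 and 0.58), which was above 0.1 for every pair. The main fit has batch and no pairs, and the fit with the replicate number as a block is an alternative. Within batches r was -0.14 in batch a and -0.06 in batch b. In the single cells both classes come from the same mice (r = 0.14, 0.08, 0.05 and 0.04 in mice A, E, G and H).

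Tested on simulated data, the bulk fit found 69 of 96 genes at a log2 change of 1, and 94 of 95 at 2, with 9 false calls among 8762 genes. The single-cell fit found 2 of 89 and 27 of 87, with 1 false call among 8323 genes. The simulated counts held no differences between batches or mice, and their spread followed abundance alone, so rates in the real data may differ. Alternatives were another scaling, other filters, DESeq2 1.42.0, other limits on cells, thinning to 1000 UMIs and leaving out samples, mice or gates. The alternatives without the CD45 gate, without the NT5E gate and with plate as a term were chosen after seeing the data. Named genes were all members, the split genes and *Lgr5* as checks, genes past adjusted p 0.05 in each other list or else up to 3 with the smallest p, and the 3 genes most correlated with *Cdh1*, *Cldn2*, *Cldn4* and *Krt20*. Other genes named for what they do not pass were chosen after their values were seen. Gene positions are from GENCODE for GRCm38, and promoters from RefSeq.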

Additional observations from a re-analysis of the deposited data

Results flagged for a closer look

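*Cdh1* in mouse E stood apart from the other 3 mice in both classes of single epithelial cells, at 2.90 UMIs per 10000 in the tip-marker-zero class (next mouse 1.31) and 5.43 in the tip-marker-high class (next mouse 2.76). The gap to the next mouse took 0.887 and 0.844 of the whole range, above Dixon's 95% limit for 4 values. The high class of mouse E held 8 cells. Of 40 groups of 4 looked at, these 2 stood out, and chance alone flags about 1 in 20.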

How the results depend on the processing

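For DT against control, 32 genes were called, and the count was 143 with DESeq2, 635 with no filter on low counts, 1 with no batch term, 3 with the replicate block, 0 in batch a alone and 5 in batch b alone. It ranged from 3 to 41 with 1 sample left out. It fell to 3 without control 1, 7 without DT 2, 9 without DT 3, 10 without control 3, 11 without control 4 and 21 without control 2. Of the 10 genes, 0 were called, 1 with DESeq2 (*Cldn2*, adjusted p = 0.0497) and 2 with no filter (*Cldn2*, 0.00180, and *Cldn4*, 5.63e-07), where 15502 genes were tested. With 1 sample left out 0 of the 10 were called, and *Cldn7* ranged from -0.24 to 0.047, turning without DT 3. In DESeq2 *Cldn4* and *Cldn23* had no adjusted p. The replicate block changed no call of the 10.

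For tip-marker-high against tip-marker-zero cells, 1358 genes were called, 892 with DESeq2, 842 thinned with classes from full counts and 419 without the doublet gates. With 1 mouse left out the count ranged from 340 (without A) to 1310 (without H), with 435 without G. Of the 10 genes, 5 were called, counting *Cldn4*, 3 with 200 to 8000 UMIs and 100 genes, 3 with no filter, 3 with plate as a term, 2 without the doublet gates and 2 without the CD45 gate. With 1 mouse left out this was 2 (without A or G) to 6 (without E). Each of these counts includes *Cldn4*, which had to differ and was called in all 22 alternatives. With no replicate block *Cdh1* had 0.94 (adjusted p = 0.0761), and no other call of the 10 changed. *Cldn3* turned to -0.061 with 200 to 8000 UMIs, -0.38 thinned with full classes and -0.33 with thinned classes. *Cldn15* turned to 0.12 with 2 or more tip UMIs, 0.14 with DESeq2, 0.15 with RLE scaling, 0.020 with at least 10 cells and 0.036 with no filter, and lay between 0.020 and 0.14 with 1 mouse left out. Its lowest value among the alternatives was -1.09, so it moved further down than up, without a call. The cause of these changes was not tested.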
